A study of Mus musculus with 29 samples.

Results

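The genes described here are the 7 mouse genes of anti-Müllerian hormone, inhibin and activin and their binding proteins: Amh, its receptor gene Amhr2, the inhibin and activin subunit genes Inha, Inhba and Inhbb, and the antagonist genes Fst and Fstl3. They were taken by name from the gene-level count table, and all 7 were found among its 51912 gene identifiers. The samples were 29 preparations of whole mouse ovary, taken apart into cells with papain before RNA extraction and measured by bulk RNA sequencing. They came from wild-type mice (Cdkn1b +/+) and from mice without a working Cdkn1b gene (Cdkn1b -/-, Cdkn1b-null here), which encodes p27Kip1, an inhibitor of cyclin-dependent kinases that restrains cell division. Ovaries were taken at embryonic days 13.5 (E13.5) and 18.5 (E18.5), on postnatal day 8 (PND8) and at 12 weeks (12wk). Wild-type groups were of 4 throughout, while the null groups were of 4 at E18.5 and of 3 at the remaining ages. The labels name no tissue-specific deletion, so the null genotype is taken as that of the whole animal. The labels do not say whether a sample was 1 animal or a pool, so the p-values measure the spread between these samples.

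Inhibins and activins are dimers built from shared subunits. An α subunit (Inha) joined to a β subunit (Inhba or Inhbb) makes inhibin, which lowers pituitary secretion of follicle-stimulating hormone, and a pair of β subunits makes activin, which raises it and acts within the ovary through Smad proteins. Follistatin (Fst) and follistatin-like 3 (Fstl3) bind activin and keep it from its receptors. Anti-Müllerian hormone, made by Sertoli cells of the fetal testis and by granulosa cells of growing follicles in the ovary, signals through its own type II receptor (Amhr2) and is known for restraining the recruitment of primordial follicles, a step that starts early in mice without Cdkn1b.

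Cdkn1b itself was lower in every null library than in every wild-type library of its age, at 4.29 to 4.75 CPM (counts scaled by the library total) against 19.1 to 26.1 at E13.5 and at 42.1 to 56.2 against 124 to 265 at 12wk. CPM is used throughout for a level, with TMM scaling over all 29 libraries. Libraries held 14.1 to 48.2 M counts. A level of 3 counts, taken as the smallest that depth can show, is 0.0622 to 0.213 CPM, and this floor covers counting error only. Haemoglobin genes took 18.97% of the counts in wild-type library 3 of E13.5 and at most 3.59% in any other. The granulosa markers were present at every age, with a summed level of 839 to 1770 CPM at E13.5 and 2970 to 5430 CPM after birth, although Fshr, Cyp19a1, Hsd17b1 and Esr2 were under 1 CPM at E13.5. The 4 genes of the Y chromosome summed to at most 1.58 CPM in any library. In such bulk samples, a lower level from fewer cells of a type and from less RNA per cell cannot be told apart. The header of the table names 2 combined projects without saying which samples belong to which. An effect of age or of genotype can thus not be told apart from one of project either.

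**Figure D1:**
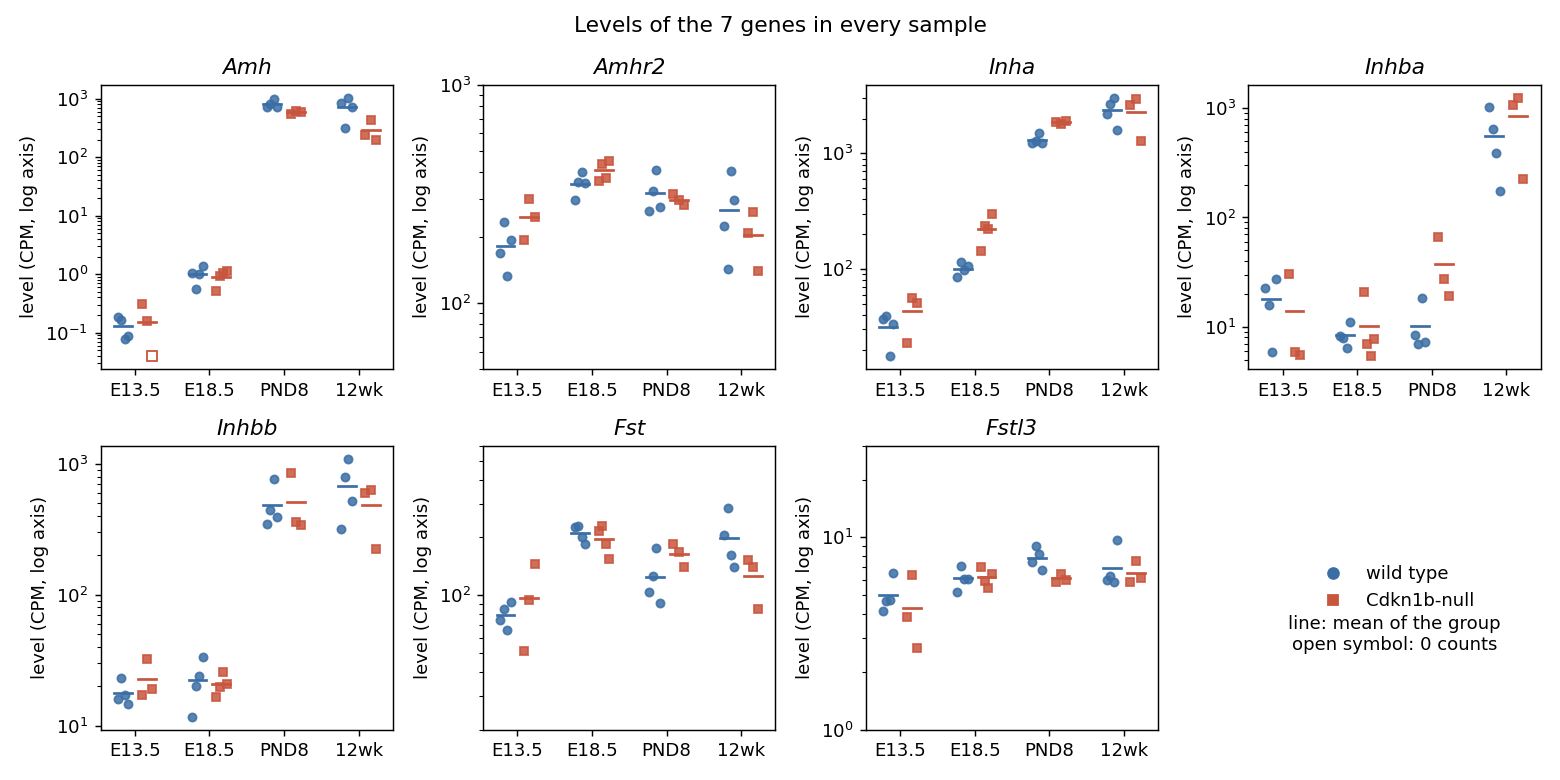
Levels of the 7 genes (CPM, log axis) in each of the 29 ovary samples by age, with wild type as circles, Cdkn1b-null as squares and the group mean as a line. Amh lies at or below 1.38 CPM in all samples before birth and at 200 CPM or more in all samples after it, Inhba is at 175 CPM or more only at 12wk, and Amhr2 lies between 134 and 450 CPM in all samples.

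Amh (ENSMUSG00000035262; chromosome 10, 80805243 to 80807648, plus strand, a gene with 1 annotated transcript) went from almost nothing before birth to one of the more abundant of the 7 genes after it. At E13.5 the wild-type libraries held 4, 3, 1 and 2 Amh counts (0.182, 0.168, 0.0771 and 0.0882 CPM) and the null libraries held 5, 4 and 0 (0.307, 0.156 and 0 CPM). These levels lie around the floor. At E18.5 the wild-type libraries stood at 1.03, 0.563, 1.01 and 1.38 CPM and the null libraries at 0.52, 0.941, 1.04 and 1.13 CPM, and each of these was above every E13.5 library. Over the summed counts, Amh was 8.27 times as frequent in wild type at E18.5 as at E13.5 (85 against 10 counts; exact 95% interval 4.28 to 17.9, counting error only) and 6.3 times in the null (77 against 9 counts; 3.15 to 14.3). At PND8 the wild-type libraries read 709, 825, 999 and 719 CPM and the null libraries 546, 621 and 599 CPM. All 3 null libraries were below all 4 wild-type libraries. At 12wk the wild-type values were 833, 313, 1034 and 712 CPM and the null values 240, 425 and 200 CPM. One wild-type library fell among the null libraries there.

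Amh rose from E13.5 to E18.5 by a log2 fold change of 2.86 ± 0.513 (SE) in wild type (edgeR quasi-likelihood test with Benjamini-Hochberg adjustment, adjusted p = 0.00196). The null gave 2.57 ± 0.769 for this step (adjusted p = 0.0325). That null call was kept in 6 of 12 alternative settings. It was lost on leaving out any one of 5 of the 7 null libraries (adjusted p from 0.0514 to 0.0833). From E18.5 to PND8 Amh rose by 9.56 ± 0.256 in wild type (adjusted p = 2.07e-08) and by 9.29 ± 0.186 in the null (adjusted p = 1.28e-09). From PND8 to 12wk the wild type gave -0.09 ± 0.31 (adjusted p = 0.849), while the null fell by 0.96 ± 0.253 on the log2 scale (adjusted p = 0.0307), from 589 ± 38.4 (SD, n = 3) to 288 ± 120 CPM. That fall was lost on leaving out any null library other than 12wk library 3, with adjusted p from 0.0638 to 0.099. The steps of the 2 genotypes were not found to differ: the genotype difference at 12wk minus that at PND8 was -0.86 ± 0.407 (adjusted p = 0.653). Sf3a2, a splicing factor gene on the same strand that ends 318 bases before Amh, was at 64.5 to 98.3 CPM in the E18.5 libraries, while Amh in the same libraries was at 0.52 to 1.38 CPM.

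Amhr2 (ENSMUSG00000023047; chromosome 15, 102445367 to 102454633, plus strand) encodes the receptor that only anti-Müllerian hormone is known to use. It was the gene with the highest level per kilobase (kb) of exon among the 7 at E13.5 and E18.5, at ages when its ligand was at or near 0. The 250 bases before its start are shown because its level was high at every age, and the capitals mark both copies of CAAGGTC, the core that the steroidogenic factor NR5A1 is known to bind. They run from 232 to 226 and from 172 to 166 bases before the start, on the strand of the gene. The sequence is from RefSeq on GRCm38.p6, chr15:102445117-102445366, plus strand.
Amhr2: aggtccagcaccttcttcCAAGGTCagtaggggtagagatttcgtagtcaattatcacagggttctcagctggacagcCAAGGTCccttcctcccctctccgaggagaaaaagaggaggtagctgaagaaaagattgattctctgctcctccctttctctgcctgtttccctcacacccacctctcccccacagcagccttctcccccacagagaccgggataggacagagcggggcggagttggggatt
CAAGGTC on either strand was present in 1092 of 32851 RefSeq promoter windows of this length (3.32%). The other motifs searched on both strands were AGATAA (known to be bound by Gata4, in 9.99% of windows), TATAAA (the TATA box, 12.4%), TGACGTCA (the cyclic AMP response element, 1.55%) and TGANTCA (AP-1, 6.75%). None of these letters is in the Amhr2 window. A match describes the letters and is no evidence of binding.

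The wild-type E13.5 libraries held Amhr2 at 169, 235, 134 and 196 CPM and the E18.5 libraries at 299, 359, 398 and 354 CPM, without overlap. Amhr2 rose over this step by 0.93 ± 0.172 on the log2 scale in wild type (adjusted p = 0.00227) and by 0.74 ± 0.145 in the null (adjusted p = 0.00538). From E18.5 to PND8 it fell in the null by 0.51 ± 0.103 (406 to 298 CPM, adjusted p = 0.00107) and gave -0.23 ± 0.149 in wild type (adjusted p = 0.182). The difference between these steps was -0.3 ± 0.336 (adjusted p = 0.833). With all 29 samples in 1 fit, the fall in the null gave an adjusted p of 0.116. After birth the groups of Amhr2 overlapped, at 265 to 406 and 283 to 316 CPM at PND8 and 144 to 404 and 141 to 262 CPM at 12wk in wild type and null. Of the 8 groups in order of mean Amhr2, from 406 CPM in the E18.5 null to 183 CPM in the E13.5 wild type, each overlapped the next.

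The within-sample ratio of Amh to Amhr2 per kb of merged exon was 0.00344 ± 0.00124 in wild type at E18.5 (SD, n = 4) and 3.08 ± 0.109 at PND8. In the null it was 0.00266 ± 0.000696 (n = 4) and 2.38 ± 0.263 (n = 3). At PND8 the ratio was 2.95 to 3.21 in wild type and 2.08 to 2.54 in the null. At 12wk it was 2.61 to 4.42 and 1.36 to 1.95. The genotypes did not overlap in this ratio at either age after birth, and the ratio was not tested. Lengths shift it: per kb of mean transcript length, the wild-type means were 1.49 at PND8 and 1.57 at 12wk. The null means were then 1.15 and 0.81, and 0 of the 3 null samples of 12wk were above 1.

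Inha (ENSMUSG00000032968; chromosome 1, 75507077 to 75510366, plus strand, 1 annotated transcript) encodes the subunit that sets inhibin apart from activin, and it was the gene of the 7 that differed between genotypes at E18.5. The wild-type E18.5 libraries stood at 85.9, 114, 97.8 and 105 CPM and the null libraries at 144, 233, 220 and 296 CPM. Every null library was above every wild-type library. The log2 fold change of null over wild type was 1.14 ± 0.188, a 2.2-fold difference (adjusted p = 0.00795). It was called, meaning an adjusted p under 0.05, in all 13 alternative settings, with adjusted p from 3.58e-07 to 0.0348, and leaving out single libraries gave 0.97 to 1.3. The other 6 genes were not called, so 1 of the 7 was called at this age, where 4.99% of all genes tested were. Amhr2 gave 0.19 ± 0.114, Inhba 0.28 ± 0.39, Amh -0.15 ± 0.388, Inhbb -0.11 ± 0.27, Fst -0.11 ± 0.128 and Fstl3 0.02 ± 0.185, with adjusted p from 0.342 to 0.965.

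Beside Inha at E18.5, 3 of the 9 granulosa markers tested were called, all higher in the null: Hsd17b1, the enzyme of the last step of estradiol synthesis (1.19 to 4.92 CPM, log2 fold change 2.03 ± 0.324, adjusted p = 0.0059), the aromatase gene Cyp19a1 (0.46 to 2.65 CPM, 2.51 ± 0.489, adjusted p = 0.016) and the gap junction gene Gja1 (414 to 574 CPM, 0.46 ± 0.0986, adjusted p = 0.0235). Cyp19a1 lay under 1 CPM in the mean of wild type but not of the null, so it passed the low-count filter through the null group. That filter favoured a call of Cyp19a1 as higher in the null. Of the 9 markers, Cyp19a1 included, 6 had a log2 fold change above 0 and 3 (Foxl2, Wt1 and Gata4, none called) one below it, with a median of 0.35 against -0.04 over all genes tested. Their summed level was 1630 to 2240 CPM in wild type and 2190 to 2560 CPM in the null, which overlap. Of the 10 steroidogenic and stromal markers, 8 were lower in the null (median -0.37) and 2 were called: Hsd3b1 was higher (179 to 302 CPM, adjusted p = 0.0478) and the stromal factor gene Nr2f2 lower (129 to 90.3 CPM, adjusted p = 0.0436) in the null. The 4 germ cell markers tested were all lower (median -0.7; summed level of the list at most 1130 CPM in wild type, with a median of 815, and at most 734 in the null, with a median of 413, with overlap), as were 6 of the 7 oocyte markers tested (median -0.38; summed level of the list 37.6 to 146 and 27.9 to 80.2 CPM, with overlap), none of them called. The part of these markers in the Inha difference was not tested.

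At E13.5 Inha read 37, 39, 17.6 and 33.2 CPM in wild type and 22.9, 56 and 50.4 CPM in the null. The groups overlapped, and the lowest value was that of the library rich in haemoglobin. None of the 6 genes tested at this age was called (edgeR), none had an unadjusted p under 0.05 (against 3.49%), DESeq2 called none, and 0.00606% of all genes tested were called. At PND8 Inha read 1232, 1281, 1511 and 1235 CPM in wild type and 1853, 1812 and 1908 CPM in the null. The null libraries were again all higher, by 0.49 ± 0.0907 on the log2 scale, but with an adjusted p of 0.0675 this missed the threshold. It passed with DESeq2 (adjusted p = 1.6e-05), with no filter on low counts (0.0241) and without wild-type library 3 (0.0323). At 12wk the values were 2180, 2672, 3028 and 1592 CPM in wild type and 2648, 2951 and 1277 CPM in the null, a difference of -0.06 ± 0.303 (adjusted p = 0.972). The genotype difference at E18.5 exceeded that at E13.5 by 0.71 ± 0.403 (adjusted p = 0.538), and that at PND8 was below that at E18.5, with a difference of -0.65 ± 0.399 (adjusted p = 0.668). So the size of the Inha difference was not shown to change with age.

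With age, Inha rose at each step in wild type, by 1.66 ± 0.221 from E13.5 to E18.5 (adjusted p = 0.000378), 3.62 ± 0.142 to PND8 (adjusted p = 3.85e-08) and 0.92 ± 0.182 to 12wk (adjusted p = 0.00556). In the null it rose by 2.4 ± 0.358 (adjusted p = 0.0029) and 2.99 ± 0.217 (adjusted p = 1.63e-06), and the last step gave 0.38 ± 0.272 (adjusted p = 0.348). Null library 4 of 12wk, at 1277 CPM of Inha, also had the highest endothelial markers of its age (1030 CPM against 359 to 482 CPM in the others), whose part in its value was not tested. Without it, that step gave 0.66 (adjusted p = 0.00874). Inha had the highest level per kb of the 7 genes in all 4 groups after birth, at 891 ± 89.8 CPM per kb in wild type and 1260 ± 32.6 in the null at PND8.

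**Figure D2:**
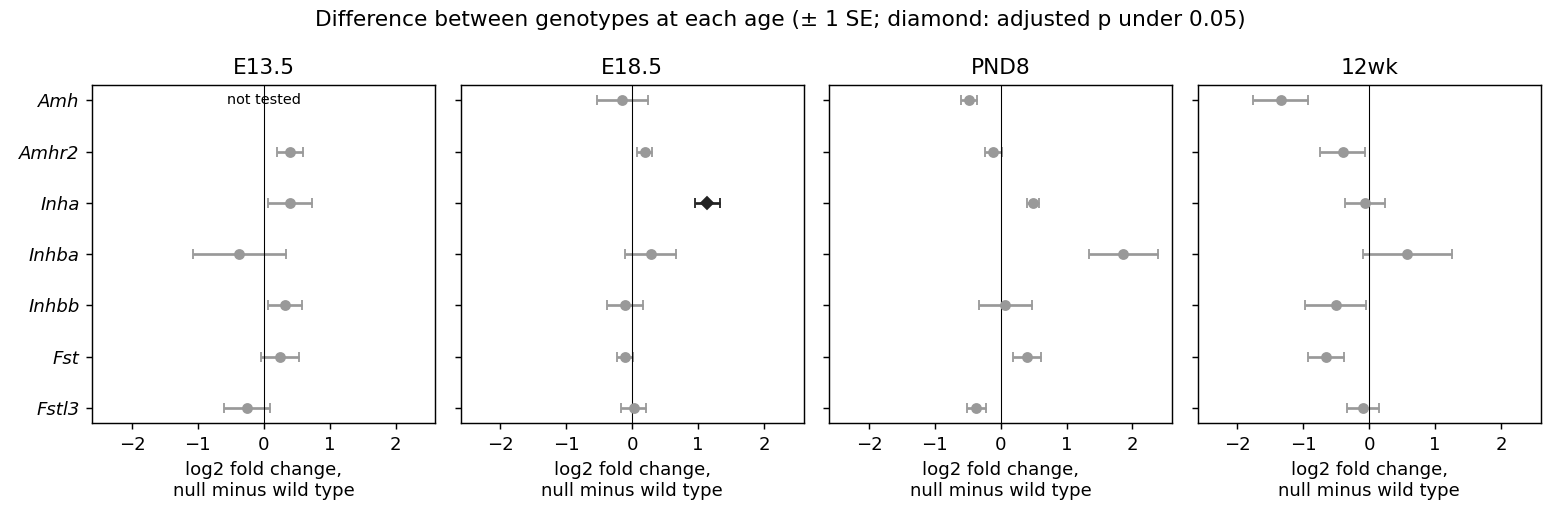
Log2 fold change of Cdkn1b-null over wild type (x axis, ± 1 SE) for each gene at each age, with a diamond for an adjusted p under 0.05. Inha at E18.5 (1.14) is the only diamond, and Amh at E13.5 was not tested because its counts were too low.

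The β subunit genes rose at different ages. Inhbb (ENSMUSG00000037035; chromosome 1, 119415465 to 119422248, minus strand) rose between E18.5 and PND8, as Inha and Amh did, and Inhba (ENSMUSG00000041324; chromosome 13, 16011851 to 16031621, plus strand) rose between PND8 and 12wk. The 250 bases before each start are set side by side because of this difference in timing, from RefSeq on GRCm38.p6 at chr1:119422249-119422498, minus strand, and chr13:16011601-16011850, plus strand. The capitals mark TATAAA in Inhba, from 91 to 86 bases before the start, and none of the 5 motifs is in the Inhbb window.
Inhbb: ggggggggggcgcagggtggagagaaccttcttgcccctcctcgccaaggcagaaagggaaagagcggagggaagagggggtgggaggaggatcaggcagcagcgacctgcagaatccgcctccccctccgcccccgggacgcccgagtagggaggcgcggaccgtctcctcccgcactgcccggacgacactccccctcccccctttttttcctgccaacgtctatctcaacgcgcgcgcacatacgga
Inhba: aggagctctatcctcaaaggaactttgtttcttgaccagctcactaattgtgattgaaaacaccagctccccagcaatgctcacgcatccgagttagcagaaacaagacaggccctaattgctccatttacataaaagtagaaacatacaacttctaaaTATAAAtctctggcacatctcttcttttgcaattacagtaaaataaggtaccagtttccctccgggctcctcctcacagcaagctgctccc
The Inhbb window is 68.0% G and C with 21 CG pairs, and the Inhba window 43.2% with 3 CG pairs. The median over all windows is 52.4% with 6 CG pairs. The window of Fstl3, a gene with no called step, is 71.2% G and C with 22 CG pairs. It holds TATAAA on the opposite strand, from 29 to 24 bases before the start. A link between these letters and the time of a rise was not tested.

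Inhbb read 11.7, 20, 24 and 33.5 CPM in wild type and 16.6, 19.9, 25.8 and 20.7 CPM in the null at E18.5, and 351, 444, 762 and 392 CPM and 852, 358 and 340 CPM at PND8. The lowest library at PND8 was thus above the highest at E18.5 in both genotypes. The rise was 4.36 ± 0.361 in wild type (adjusted p = 2.09e-06) and 4.57 ± 0.377 in the null (adjusted p = 1.94e-05). Before this step, from E13.5 to E18.5, Inhbb gave 0.32 ± 0.287 and -0.11 ± 0.234, and after it, to 12wk, 0.56 ± 0.374 and -0.03 ± 0.495, none of them called. At PND8 and 12wk single libraries of Inhbb lay apart, and the genotype differences of 0.07 ± 0.405 and -0.51 ± 0.465 (log2 ± SE) were not called.

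Inhba read 8.39, 6.93, 18.4 and 7.23 CPM in wild type and 65.9, 27.1 and 19.2 CPM in the null at PND8. The groups did not overlap, though the lowest null library was only just above the highest wild-type one. The log2 fold change was 1.86 ± 0.523 (adjusted p = 0.194), and it was 1.17 to 2.29 when single libraries were left out. DESeq2 called it (adjusted p = 0.0339). The null library at 65.9 CPM also had the highest red blood cell markers of its age, at 1850 CPM against 7.85 to 247 CPM in the others, and their part in its value was not tested. At 12wk Inhba read 1018, 643, 388 and 175 CPM in wild type and 1061, 1244 and 224 CPM in the null. These libraries spread more than 5-fold within each genotype. The rise from PND8 was 5.84 ± 0.628 in wild type (adjusted p = 0.000424) and 4.56 ± 0.799 in the null (adjusted p = 0.00891), and the difference between these steps was -1.27 ± 0.943 (adjusted p = 0.894). In the null Inhba had already risen from E18.5 to PND8 by 1.81 ± 0.612 (adjusted p = 0.0322), against 0.2 ± 0.324 in wild type (adjusted p = 0.582). This rise was lost without null library 1 of PND8 (1.13, adjusted p = 0.102) and without any one of null libraries 2, 3 and 4 of E18.5 (adjusted p from 0.0656 to 0.0859), and the difference between the genotypes' steps was 1.58 ± 0.939 (adjusted p = 0.66).

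At E13.5 the libraries with more Inhba were those with more of the markers of neighbouring tissue. At that age the wild-type libraries held it at 22.5, 16, 5.86 and 27.1 CPM, beside summed mesonephros and adrenal markers of 258, 66.8, 48.2 and 129 CPM. The null libraries held it at 30.5, 5.88 and 5.48 CPM, beside 107, 33.7 and 41.5 CPM. The 4 libraries with Inhba above 15 CPM were thus the 4 with the markers above 60 CPM. The list has 8 genes, of which the adrenal enzymes Cyp21a1 and Cyp11b1 were under 1 CPM. At E18.5 this did not hold across libraries. The highest Inhba, 20.7 CPM in null library 1, came with the highest markers, 27.8 CPM, but in wild type the highest Inhba, 10.96 CPM in library 4, came with the lowest markers, 7.4 CPM, and in the null the lowest Inhba, 5.39 CPM in library 3, came with 16 CPM. Pax8 was the only marker of the list at 1 CPM or more at that age. From E13.5 to E18.5 Inhba fell in wild type by 1.11 ± 0.389 on the log2 scale (17.9 to 8.35 CPM, adjusted p = 0.0497), with overlapping groups, while the markers went from 48.2 to 258 CPM down to 7.4 to 12.6 CPM. This call was lost when any one wild-type library other than E13.5 library 3 was left out, with adjusted p from 0.0635 to 0.132, and with no filter on low counts (0.0655) or all samples in 1 fit (0.186). The part of the markers in these values was not tested.

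**Figure D3:**
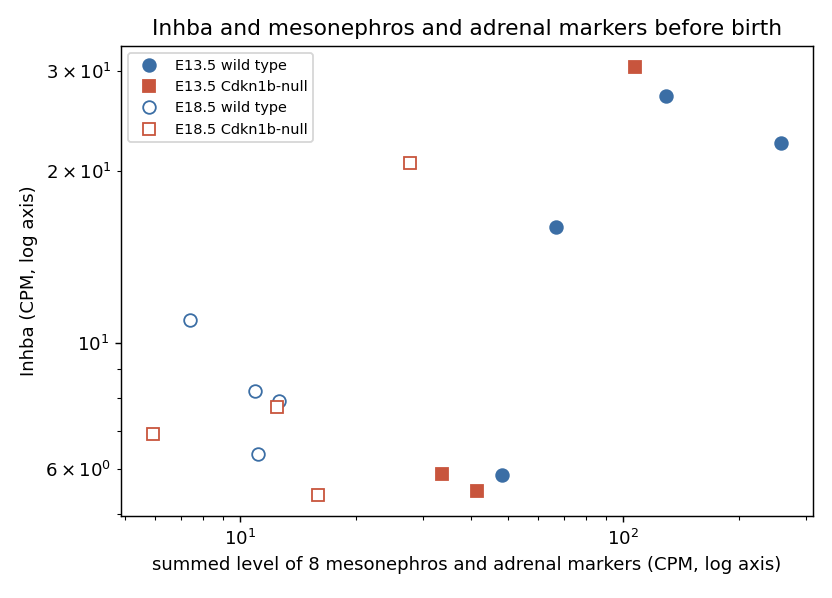
Inhba (CPM, log axis) against the summed level of 8 mesonephros and adrenal markers (CPM, log axis) in the 15 libraries before birth, filled at E13.5 and open at E18.5, circles for wild type and squares for Cdkn1b-null. The 4 E13.5 libraries with 16 to 30.5 CPM of Inhba have marker sums of 66.8 to 258 CPM, and the other 3 have sums of 33.7 to 48.2 CPM.

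Within each sample, the levels per kb of merged exon give the make-up of the subunit transcripts. The ratio of Inhba to Inhbb was 0.0137 ± 0.0028 in wild type at PND8 (SD, n = 4) and 0.0465 ± 0.00774 in the null (n = 3). The wild-type samples ran from 0.0104 to 0.0161 and the null samples from 0.0376 to 0.0515. They did not overlap, and the ratio was not tested. At 12wk it was 0.78 ± 0.904 and 1.06 ± 0.342, so both β subunit transcripts were then of the same order, with single samples from 0.225 to 2.12 in wild type. At E18.5 it was 0.282 ± 0.13 and 0.362 ± 0.316. The transcript of the α subunit exceeded the sum of both β subunits in all 29 samples by merged exon length, by 11.3 ± 3.15 in wild type and 24 ± 8.31 in the null at E18.5 (n = 4 each), 8.21 ± 1.86 and 11.8 ± 5.15 at PND8 (n = 4 and 3), and 6.57 ± 0.44 and 7.21 ± 2.34 at 12wk. At E18.5 the wild-type ratios lay between 7.45 and 14.5 and the null ratios between 13.7 and 33.2, with overlap. Which length is used changes the level of these ratios: with coding length, the excess of Inha over the β subunits at E13.5 in wild type was 1.01 in place of 3.04, and Inha was then below the β subunits in 2 of 4 wild-type and 1 of 3 null samples of that age.

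**Figure D4:**
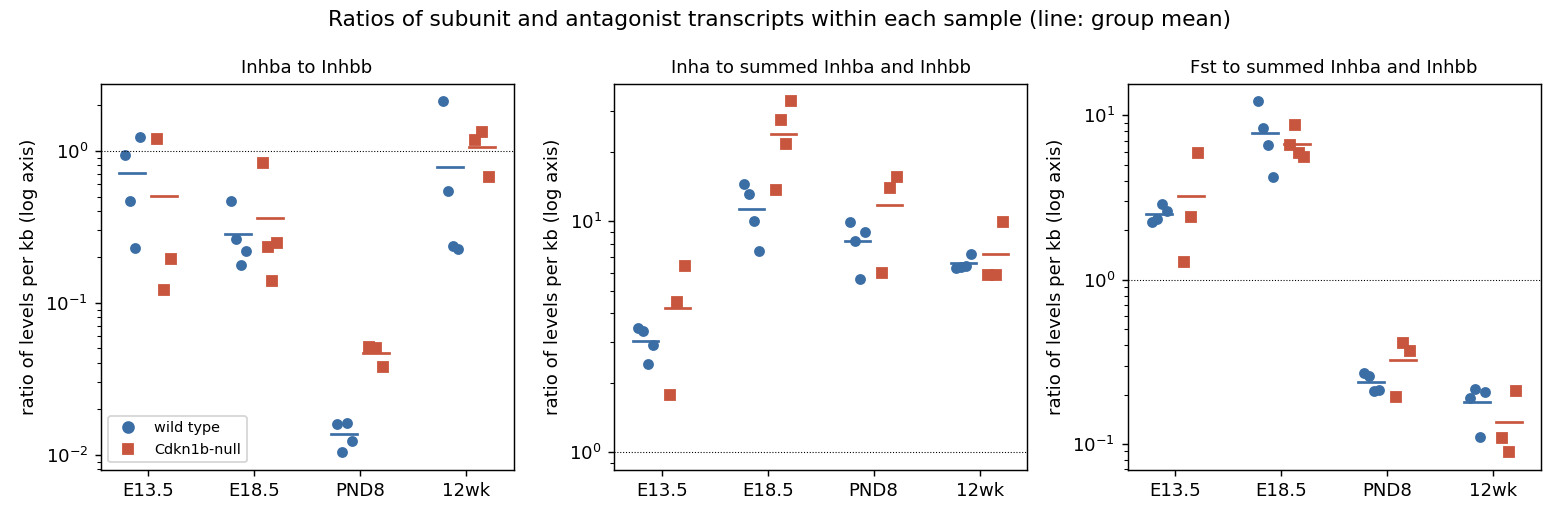
Ratios of levels per kb of merged exon within each sample (log axis) by age, with circles for wild type, squares for Cdkn1b-null and the group mean as a line. At PND8 the Inhba to Inhbb ratio is 0.0104 to 0.0161 in wild type and 0.0376 to 0.0515 in the null, and the Fst to β subunit ratio is, by this length, above 1 in all samples before birth and below 1 in all samples after it.

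Fst (ENSMUSG00000021765; chromosome 13, 114452290 to 114458951, minus strand), the main activin antagonist of the ovary, did not follow the subunit genes. It read 74.6, 84.7, 65.7 and 92.1 CPM in wild type at E13.5 and 226, 229, 202 and 184.8 CPM at E18.5, without overlap, and 103, 127, 176 and 91.1 CPM at PND8, again without overlap. It rose to E18.5 by 1.4 ± 0.136 (adjusted p = 7.14e-05), fell to PND8 by 0.84 ± 0.182 on the log2 scale (adjusted p = 0.00167), and gave 0.75 ± 0.253 from there to 12wk (adjusted p = 0.0519), at 205, 285, 162 and 141 CPM. This last step passed with DESeq2 (adjusted p = 0.0138) and without wild-type library 3 of PND8 or library 3 or 4 of 12wk (0.0251 to 0.047). In the null the step to E18.5 was 1.05 ± 0.316 (adjusted p = 0.0404), from 51.5, 94.4 and 145 to 217, 229, 186 and 155 CPM, and it was lost on leaving out null library 3 of E13.5 or any null library of E18.5 (adjusted p from 0.053 to 0.116). The later steps in the null, -0.32 ± 0.137 and -0.31 ± 0.208, were not called. Between genotypes Fst gave 0.4 ± 0.21 at PND8 (adjusted p = 0.421) and -0.66 ± 0.275 at 12wk (adjusted p = 0.506), where the null read 153, 140 and 84.7 CPM. The change in this difference between the 2 ages was -1.06 ± 0.385 (unadjusted p = 0.0107, adjusted p = 0.41).

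Against the summed β subunit transcripts, the Fst transcript went from an excess before birth to a minority after it when levels were taken per kb of merged exon. These are ratios of RNA, and the proteins were not measured. Fst stood at 7.86 ± 3.37 times the summed β subunits in wild type at E18.5 and at 0.238 ± 0.0312 times at PND8 (SD, n = 4 each). In the null these were 6.69 ± 1.41 (n = 4) and 0.325 ± 0.118 (n = 3). By this length the ratio was above 1 in all 15 samples before birth and below 1 in all 14 after it. By coding length the same held. By mean transcript length 1 sample after birth was above 1, null library 3 of PND8 at 1.08, and the PND8 means were 0.633 in wild type and 0.848 in the null. Fst overlaps an exon of the antisense gene Gm47040 in the annotation, and strand use in counting is not given in the sources used here.

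Fstl3 (ENSMUSG00000020325; chromosome 10, 79777272 to 79782630, plus strand) was among the 3 genes with the lowest level per kb in every group. It stayed between 2.66 and 9.67 CPM in all 29 samples, and no step was called in either genotype, with log2 fold changes from -0.1 to 0.56. Without null library 3 of E13.5 the null step to E18.5 reached 0.94 (adjusted p = 0.0323). At PND8 it read 7.44, 9.01, 8.2 and 6.78 CPM in wild type and 5.89, 6.46 and 6.01 CPM in the null, without overlap (-0.37 ± 0.146, adjusted p = 0.28). Its exons overlap those of Prss57 on the opposite strand, and 55.2% of its deposited values above 0 were not whole, so part of its reads was shared out by the authors' estimation. Prss57 itself was at most 1.94 CPM in any library.

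Seen together, none of the 7 genes was called between genotypes at PND8 or at 12wk by the edgeR test, where 0.349% and 0.0115% of all genes tested were called. At PND8, 4 of the 7 had an unadjusted p under 0.05 (Amh, Inha, Inhba and Fstl3, against 15% of all genes tested), the same 4 had groups that did not overlap (against 14.5%), and DESeq2 called 3 (Amh, Inha and Inhba, against 5.2% of the genes to which it gave an adjusted p). At PND8 Inha, Inhba and Fst stood higher in the null and Amh and Fstl3 lower, and among these Amh gave -0.48 ± 0.124 (adjusted p = 0.143). At 12wk 2 had an unadjusted p under 0.05 (Amh and Fst, against 9.63%), and DESeq2 called Amh (against 1.65%). The Amh difference at 12wk was -1.34 ± 0.416, or 723 ± 304 (SD, n = 4) against 288 ± 120 CPM (n = 3), with an adjusted p of 0.423 in edgeR within the age, 0.0482 with all samples in 1 fit and 0.0356 in DESeq2. Beside it, the summed oocyte markers of the wild-type libraries with 833, 313, 1034 and 712 CPM of Amh were 14.8, 8.75, 114 and 35.9 CPM, and those of the null libraries with 240, 425 and 200 CPM were 4.99, 8.45 and 7.56 CPM. Of the 10 oocyte markers, 8 were under 1 CPM in the mean of the null group and 1 in that of the wild-type group. The 9 oocyte markers tested at 12wk were all lower in the null, and none was called. The granulosa markers overlapped at 12wk, at 3600 to 4700 CPM in wild type and 3180 to 5430 CPM in the null, and at PND8 were 2970 to 3520 and 3820 to 4160 CPM, without overlap. The part of either marker list in these differences was not tested.

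The interaction of genotype and age was not called for any of the 7 (edgeR, adjusted p from 0.384 to 0.87; 0.806% of all genes tested called). Inha and Fst had an unadjusted p under 0.05 (against 12.7%), and DESeq2 called none. For single steps between ages, where 0.653%, 0.329% and 0.0246% of all genes were called, again none of the 7 was called by either tool, and the unadjusted p was under 0.05 only for Amh and Fst from PND8 to 12wk (against 7.47%).

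Over the ages, in wild type 5 of the 7 genes were called from E13.5 to E18.5 (against 34% of all genes tested), 4 from E18.5 to PND8 (74.6%) and 2 from PND8 to 12wk (30.5%). In the null these counts were 4 (30.2%), 5 (77.4%) and 2 (29.1%). The consecutive steps share the libraries of the age between them. The members' shares lie close to those of all genes at the third step in both genotypes and at the second in the null, below at the second in wild type, and above at the first in both. None of these gaps was tested. The first-step counts of both genotypes include Amh, which had 0 to 5 counts a library at E13.5. It passed the low-count filter through the E18.5 libraries, so that filter favoured a call as a rise. In wild type they also include Inhba, at an adjusted p of 0.0497 (edgeR). The first-step count was 4 to 5 in wild type and 2 to 4 in the null without single libraries, and 2 in the null with the replicate block.

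**Figure D5:**
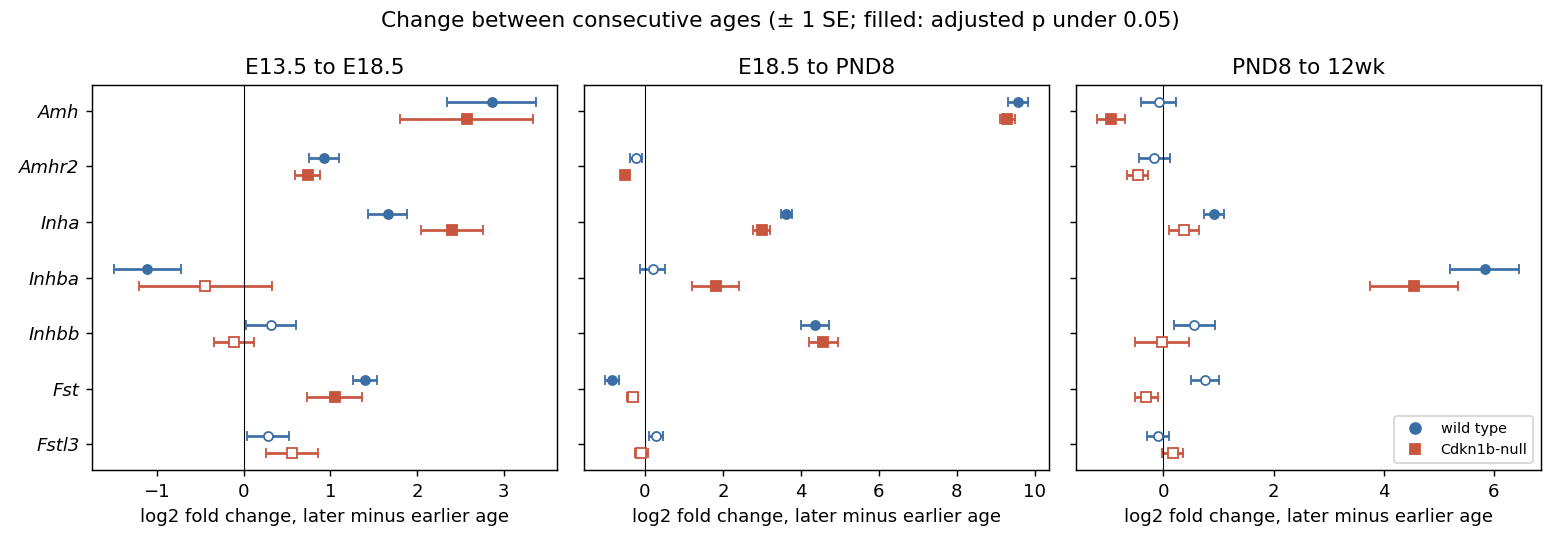
Log2 fold change between consecutive ages (x axis, ± 1 SE) in wild type (circles) and Cdkn1b-null (squares), filled where the adjusted p was under 0.05. From E18.5 to PND8 Amh (9.56 and 9.29), Inhbb (4.36 and 4.57) and Inha (3.62 and 2.99) rose in both genotypes, and Inhba rose most from PND8 to 12wk (5.84 and 4.56).

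Most of the receptor and Smad genes that carry these signals were called from E18.5 to PND8, as were 74.6% of all genes tested in wild type and 77.4% in the null. Of 9 receptor genes, 5 rose and 2 fell at this step in wild type, with a median log2 fold change of 1.39 against 0.01 over all genes tested. In the null 7 rose and 2 fell, with a median of 1.56. Those with the smallest p in wild type were Bmpr1b (11.6 ± 3.43 to 67.6 ± 10.5 CPM), Bmpr2 (77.7 ± 18.7 to 322 ± 71.6), Bmpr1a (67.3 ± 14 to 187 ± 11.1) and Tgfbr3 (42.6 ± 6 to 132 ± 32.1; SD, n = 4 each). Bmpr1a and Bmpr1b encode type I receptors of the bone morphogenetic protein branch that anti-Müllerian hormone can use, and Tgfbr3 encodes betaglycan, the coreceptor of inhibin. The genes that fell were the activin type II receptor gene Acvr2a (43.1 ± 6.99 to 22.8 ± 2.05 CPM) and Acvr1c (1.05 ± 0.328 to 0.402 ± 0.239 CPM). Of 8 Smad genes, 6 rose and none fell in either genotype at this step, among them Smad3 (134 ± 31.4 to 450 ± 91 CPM in wild type), which transmits activin signals, and the common partner Smad4 (32.7 ± 11.6 to 125 ± 4.49 CPM). From E13.5 to E18.5 only Bmpr2 of the receptors rose in either genotype (0.57 ± 0.198 in wild type, adjusted p = 0.0454). At that step 34% of all genes tested were called in wild type and 30.2% in the null. From PND8 to 12wk 3 of the 9 receptors rose in wild type and 4 in the null with none falling, beside 30.5% and 29.1% of all genes called. Of the 8 Smad genes, 3 rose and 3 fell in the null from PND8 to 12wk, and 4 rose and 0 fell in wild type. Among those that fell in the null was Smad3, by 1.13 ± 0.113 on the log2 scale (433 to 187 CPM, adjusted p = 0.00134). For none of the 8 was the difference between the genotypes' steps called.

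Of 13 other ligands, binding proteins and convertases, 8 were tested from E18.5 to PND8 and 4 rose and 3 fell in each genotype, beside the 74.6% and 77.4% of all genes called. The convertase genes Furin, Pcsk5 and Pcsk6, whose enzymes cut the precursors of this protein family, rose in wild type from 37.7 ± 8.3 to 130 ± 11.8, from 26.4 ± 8.22 to 121 ± 21.4 and from 112 ± 49.2 to 1020 ± 266 CPM. Bambi, a decoy receptor gene, fell from 155 ± 30.3 to 29.1 ± 1.59 CPM. Of 12 transcription factors and signals known to act on the 7 genes, 9 rose and 1 fell at this step in each genotype, again beside most genes tested. Those with the smallest p in wild type were Nr5a2 (7.09 ± 2.24 to 501 ± 39.4 CPM) and Esr2 (4.67 ± 1.63 to 173 ± 35.9 CPM), nuclear receptor genes of granulosa cells. The largest fitted log2 fold change was that of Fshr, the receptor gene of follicle-stimulating hormone, which rose from 0.0741 ± 0.093 CPM to 15 ± 1.65 CPM. The first of these means lies below the 3-count floor of the E18.5 wild-type libraries, at 0.143 to 0.173 CPM. The 1 that fell in wild type was Sox9, which drives Amh in the testis (24.6 ± 2.86 to 4.98 ± 0.678 CPM), at the step at which Amh rose. Between genotypes, 1 gene of these 4 lists was called at any age: the ligand gene Gdf11 was lower in the null at E18.5 (14.8 ± 1.23 to 8.8 ± 0.413 CPM, -0.76 ± 0.143, adjusted p = 0.0141). The interaction of genotype and age was called for 1 of the 9 receptor genes and for none of the other lists, beside 0.806% of all genes tested.

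Across the 29 samples, the genes most like each of the 7 were sought among 12919 genes by Pearson's r of log2 CPM. The samples share ages, genotypes and the processing, so r is a description. Amh was most like Mras, Arhgap31 and Map4 (r = 0.991 to 0.992), Inha most like Hsd17b1, Akr1cl and Erap1 (0.982 to 0.989), and Inhbb most like Pgbd5, Cables1 and Scap (0.983 to 0.985). Inhba was less closely matched (Rassf4 0.916, H2-Eb1 0.908, Gpx3 0.899), as were Amhr2 (Hpcal1 0.897, Kctd14 0.89, Wfdc1 0.865), Fst (Cln3 0.846, Ppt1 0.842, Shroom1 0.836) and Fstl3 (Amigo2 0.738, Tmem221 0.73, Lmna 0.715). Among the 7, Amh, Inha and Inhbb had r of 0.93 to 0.96 with each other, while Amh and Amhr2 had 0.05. With the group means taken out, which leaves the spread between samples of a group, Amhr2 was most like Tnni3, Bmyc and Kctd14 (0.945, 0.896 and 0.893), Inha most like Arxes2, Me2 and Dnajc3 (0.894, 0.871 and 0.843), and Inhba most like Kcnk1, Col9a2 and Zfp422 (0.826, 0.745 and 0.721). For the others the highest were Ubxn10, Patz1 and Rara with Amh (0.81, 0.802 and 0.798), Neo1, Fam222a and Camta1 with Inhbb (0.768, 0.766 and 0.764), Spag4, Pdia5 and Tmsb15b2 with Fst (0.79, 0.765 and 0.752) and Rab34, Terb1 and Adi1 with Fstl3 (0.719, 0.71 and 0.69). Terb1 and Adi1 dropped to 0.45 and 0.51 without the E13.5 libraries numbered 3. On the same scale Amh and Fst had r of -0.48, and Inha had 0.56 with Amhr2 and 0.55 with both Inhbb and Fst.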

How the data were processed

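Bulk RNA sequencing reads were processed by the authors with Trim Galore, FastQC 0.11.5, STAR 2.5.2 and RSEM 1.3.0, per the submitters' processing notes, and expected counts per Ensembl gene were deposited. These are estimated counts, shared among genes where a read fits several, and 31.4% of those above 0 were not whole. They were rounded. Genome build, Ensembl release and strandedness are not given in the sources used here. Positions are GENCODE M21 on GRCm38. The 7 genes and all lists were chosen with earlier results of these data known. Named beside them are up to 4 called genes per list and comparison, and the 3 most alike per gene.

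Samples were grouped by their titles. Tests used edgeR 4.0.16 (R 4.3.3): TMM scaling, filterByExpr (minimum count 10, minimum total 15), robust quasi-likelihood F test, adjustment over all genes tested, threshold 0.05. Each genotype comparison and age step used its own groups alone, and the interaction all 29 samples. The SE is the log2 fold change over the square root of F. Alternatives were RLE scaling, no filter, DESeq2 1.42.0, 1 fit over all samples, a replicate block and leaving out each library. Tests were tried on simulated counts first. Libraries of a group differed by more than sampling noise in all 39 pairs.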

Additional observations from a re-analysis of the deposited data

Results flagged for a closer look

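Each gene was searched, in each group of 4 samples, for a highest or lowest library far from the rest by Dixon's test, in 35 sets of values. Chance alone marks about 1 in 20 sets, and 3 were marked. In the E18.5 Cdkn1b-null group, Inhba stood at 20.7 CPM in library 1 against 5.39 to 7.69 CPM in the others, and that library also had the highest summed mesonephros and adrenal markers of its age (27.8 CPM). In the PND8 wild-type group, Inhba stood at 18.4 CPM in library 3 against 6.93 to 8.39 CPM, and the same library was also the highest of its group for Amh (999 CPM), Amhr2 (406 CPM), Inha (1511 CPM), Inhbb (762 CPM) and Fst (176 CPM). In the 12wk wild-type group, Fstl3 stood at 9.67 CPM in library 4 against 5.86 to 6.32 CPM, while the same library was the lowest of its group for Inha (1592 CPM), Inhba (175 CPM) and Fst (141 CPM).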

How the results depend on the processing

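The E18.5 Inha difference and the rises of Amh, Inha and Inhbb from E18.5 to PND8 in both genotypes kept their direction and their call under every alternative run. The number of the 7 genes called between genotypes at PND8, 0 in the report, was 1 with no filter and 3 with DESeq2, and 0 to 1 without single libraries. At 12wk it was 1 with all samples in 1 fit and 1 with DESeq2. For the null step from E13.5 to E18.5 (4) it was 2 with the replicate block and 2 to 4 without single libraries. For that from PND8 to 12wk (2) it was 0 with no filter and 1 to 3 without single libraries. In each case the cause was not tested. RLE scaling changed no call, and no scaling moved the median of all genes by over 0.1. Same-numbered libraries did not deviate together at every number (mean r 0.008, 0.179, 0.102 and 0.109 from E13.5 to 12wk, and not every sample was most like its own number). The replicate block turned Inhbb at PND8 to -0.03, lost Amh and Fst from E13.5 to E18.5 in the null (adjusted p = 0.0802 and 0.164) and added Fst from E18.5 to PND8 in the null (0.0289). Log2 fold changes that were not called changed sign without single libraries as follows, from lowest to highest. The genotype difference at E18.5 gave -0.35 to 0.05 for Amh, -0.05 to 0.1 for Fstl3, -0.33 to 0.49 for Inhba and -0.33 to 0.15 for Inhbb. The wild-type step from PND8 to 12wk gave -0.31 to 0.16 for Amh and -0.43 to 0.04 for Amhr2. The genotype difference at PND8 gave -0.18 to 0.02 for Amhr2 and -0.49 to 0.36 for Inhbb. The genotype difference at E13.5 gave -0.15 to 0.54 for Fst, -0.63 to 0.01 for Fstl3 and -1.69 to 0.02 for Inhba. The genotype difference at 12wk gave -0.19 to 0.11 for Fstl3 and -0.25 to 0.22 for Inha. The null step from E13.5 to E18.5 gave -1.05 to 0.86 for Inhba and -0.29 to 0.21 for Inhbb. The wild-type step from E18.5 to PND8 gave -0.19 to 0.4 for Inhba. The null step from PND8 to 12wk gave -0.25 to 0.53 for Inhbb. The number of groups in which the mean ratio of Inhba to Inhbb per kb exceeded 1 was 1 with merged exons, 3 with coding length and 3 with mean transcript length, as the wild-type means became 1.04 and 1.15 at E13.5 and 1.14 and 1.26 at 12wk. By either of these 2 lengths, the ratio was above 1 in only 2 of 4 wild-type samples at E13.5 and 1 of 4 at 12wk. Without the E13.5 libraries numbered 3, 22 of the 42 most alike genes stayed among the 3 most alike. Depth limits Amh before birth, at 0 to 5 counts a library at E13.5.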

Other observations

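Jsrp1, which lies 847 bases beyond the end of Amh on the opposite strand, was at 2.65 to 5.01 CPM in the E13.5 libraries, above every E18.5 library (0.973 to 2.05 CPM), although Amh was at 0 to 0.307 CPM at E13.5. It was at 7.31 to 32.5 CPM in all libraries after birth. At PND8 it read 21.6, 23.2, 30.5 and 21.9 CPM in wild type and 14.6, 21.7 and 16.3 CPM in the null, and at 12wk 32.5, 10.1, 25.7 and 22 CPM and 10.9, 17.9 and 7.31 CPM. The 12wk library with the lowest Amh of its genotype had the lowest Jsrp1 in both genotypes. The other neighbour, Sf3a2, went only from 64.5 to 98.3 CPM at E18.5 to 101 to 226 CPM after birth. Without known strand use, reads beyond the annotated end of either gene cannot be told apart.

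Kitl, the ligand of the oocyte receptor Kit and a granulosa marker of the list, was the 1 granulosa marker called at PND8, at 223 ± 32.1 CPM in wild type and 411 ± 66.3 CPM in the null (SD, n = 4 and 3; log2 fold change 0.87 ± 0.137, edgeR adjusted p = 0.0473). Pdgfra, a stromal marker, was lower there, at 598 ± 102 against 332 ± 16.6 CPM (-0.86 ± 0.136, adjusted p = 0.0473). Smad9 rose from PND8 to 12wk in both genotypes, from 1.49 ± 0.343 to 14.1 ± 4.46 CPM in wild type (adjusted p = 8.33e-05) and from 1.59 ± 0.188 to 12.8 ± 2.76 CPM in the null (adjusted p = 0.000954), while Pcsk6 fell from 1020 ± 266 to 291 ± 155 CPM (adjusted p = 0.0118) and from 973 ± 171 to 136 ± 23.3 CPM (adjusted p = 0.000633).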
